A study of Mus musculus with 45 samples.

Results

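Transcripts of 6 mouse livers, taken 24 h after partial hepatectomy, were compared by genotype: 3 libraries of Uhrf1hepKO livers (KO), named for loss of Uhrf1 from hepatocytes, and 3 of wild-type livers (WT). They are the 6 columns for this time in the deposited count table, out of 45 libraries in the series. All came from C57Bl/6 mice on a normal diet, 8 to 12 weeks old, that had 2/3 of the liver removed in the morning. The labels used here name neither the driver of the deletion nor the sex of the animals. The 24 h groups are read beside livers of the same 2 genotypes before surgery (baseline) and later in regeneration. The later times are 30, 40, 48 and 96 h, then 7 days and 4 weeks. Most groups held 3 libraries. For the 30 h comparison there were only 2 WT libraries, beside 3 of KO. The WT livers of the 48 h group were also represented by 2 libraries, as were the KO livers after 7 days. The labels do not say that each library is a separate animal, so p-values measure only how far these samples vary, which can be technical variation. In whole liver RNA, fewer cells of a type and less RNA per cell cannot be told apart.

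UHRF1 is a chromatin protein that binds hemimethylated CG sites behind the replication fork and brings in DNMT1, the enzyme that copies DNA methylation onto the new strand. CG methylation keeps germline genes, some X-linked genes and repeated elements silent in somatic cells. After partial hepatectomy the quiescent hepatocytes of the remnant enter the cell cycle in a partly synchronous wave, and Uhrf1 is among the genes induced as they approach DNA synthesis.

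The libraries held 17173920 to 18916509 counts in WT and 15904593 to 16920527 in KO, and 14090 of the 19966 genes in the count table were tested. KO replicate 3 stood apart from the other 5 libraries on the first principal component, which carried 26.5% of the variance among them (position 36.45, against −17.99 to 5.084). It was also the library with the highest summed levels of Kupffer cell, monocyte and neutrophil, and lymphocyte markers. The Y-linked genes Ddx3y, Eif2s3y, Uty and Kdm5d were expressed in all 6 libraries; Uty, for one, lay between 11.5 and 12.8 CPM (counts scaled to a common library size). Albumin (Alb), the hallmark product of hepatocytes, was at 49177 ± 5128 CPM in WT, against 47458 ± 5573 in KO (SD, n = 3 each).

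Uhrf1 itself (chromosome 17, 56303321 to 56323486, GRCm38) was low in both genotypes at this time. The WT libraries held 4.74, 2.81 and 1.52 CPM, and the KO libraries 1.09, 0.674 and 1.08. The groups did not overlap, and the KO mean was 0.314 of the WT mean. The log2 difference of −1.67 ± 0.62 (SE) had an unadjusted p of 0.012 and did not pass edgeR's quasi-likelihood test after adjustment over all genes (adjusted p = 1). With 28 to 92 counts in WT libraries and 11 to 19 in KO libraries, the depth behind this check is small.

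Only 6 genes passed the edgeR test at an adjusted p under 0.05, and each was higher in KO livers; 0 were lower. That is 0.0426% of the genes tested. At an unadjusted p under 0.05 there were 313 genes higher (2.22%) and 160 lower (1.14%), 473 in all (3.36%). The 3 KO libraries did not overlap the 3 WT libraries for 1252 genes (8.89%). DESeq2 called 18 genes, 16 of them higher.

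Bglap3, an osteocalcin-related gene of a cluster whose neighbours are bone proteins, had the strongest call. Its WT libraries held 0.361, 0.305 and 0.217 CPM and its KO libraries 8.6, 9.25 and 6.2. Every KO library was far above every WT library, and the log2 fold change was 4.73 ± 0.55 (edgeR adjusted p = 7.18e-06). Rhox5, a homeobox gene of the reproductive tract that lies on the X chromosome, was at 0.361, 0 and 0.217 CPM in the WT libraries and at 4.36, 2.76 and 5.52 in the KO libraries (log2 4.34 ± 0.71, edgeR adjusted p = 0.0045). The groups were again well apart, by 21.9-fold on their means. Xist, the non-coding RNA that coats the inactive X chromosome in females, was absent from 2 of the WT libraries and at 0.0515 CPM in the third, against 1.03, 1.78 and 1.19 CPM in KO. The WT group held 1 Xist count and the KO group 68, a ratio of 74.1 once library totals are allowed for (95% interval from counting error 12.9 to 2970; edgeR adjusted p = 0.0072).

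Xlr, an X-linked lymphocyte-regulated gene of a germline family, was at 0.258, 0.122 and 0.108 CPM in WT, against 1.15, 0.98 and 1.08 in KO (log2 2.64 ± 0.48, edgeR adjusted p = 0.01). The remaining pair of called genes differ from these in kind, since both are expressed in normal liver. Unc119b, a carrier that delivers lipid-modified proteins to membranes such as the cilium, went from 47.1, 43.1 and 41.2 CPM in WT to 70.1, 70.2 and 67.6 in KO. The change was 1.58-fold on the means, small beside the others, yet the libraries of each group lay close together (log2 0.66 ± 0.12, edgeR adjusted p = 0.01). Pla2g16, a phospholipase and acyltransferase linked to lipid handling, was at 3.76, 5.31 and 5.26 CPM in WT, against 9.23, 9.13 and 8.93 in KO (log2 0.93 ± 0.18, edgeR adjusted p = 0.033). Its call was the least stable of the 6: 14 of 16 alternative fits did not call it, while Bglap3 was called in 16 of 16. Without WT replicate 2, or without WT replicate 3, Bglap3 was the 1 gene still called, and without KO replicate 1 only Bglap3, Xist and Rhox5 were. Without KO replicate 3, the library that stands apart, 5 of the 6 were called and Pla2g16 was not. In the fit of the 6 libraries at 24 h alone, 2 genes were called, Bglap3 and Gstp2.

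**Figure D1:**
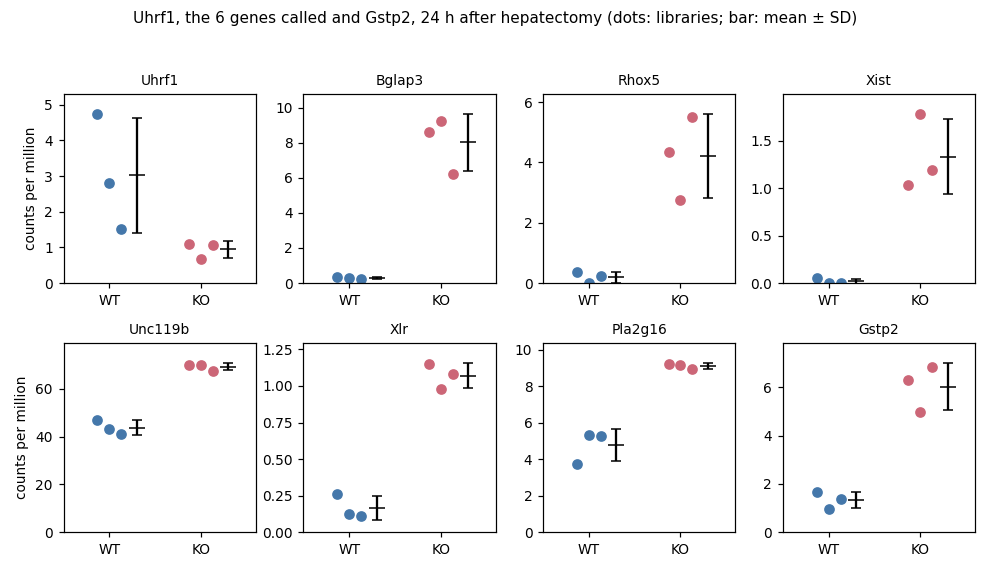
CPM of Uhrf1, the 6 called genes and Gstp2 in each library at 24 h (y axis, linear from 0, its own scale in each panel); dots are libraries and the bar is the mean ± SD. WT and KO dots do not overlap in any panel: Uhrf1 is lower in KO and the other 7 are higher, Bglap3 by the widest margin (0.217 to 0.361 against 6.2 to 9.25).

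On a length-normalised scale (the deposited FPKM), the KO means of the called genes were modest. Rhox5 reached 6.71 ± 2.26 FPKM and Bglap3 5.2 ± 1.09, while Xlr stood at 1.21 ± 0.0895 and Xist at 0.333 ± 0.198 (SD, n = 3). Unc119b, at 18.1 ± 0.641, was the highest of the 6 per length. None was near albumin (Alb), at 22246 ± 2671 FPKM in the same livers.

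Promoter windows of 4 called genes are shown because CG sites are where UHRF1 acts, and these genes span few to many of them. Each window is 300 bases of the sense strand, 250 before to 50 after a RefSeq transcription start (RefSeq, build GRCm38.p6), with every CG in capitals. CG reads the same on both strands.
Bglap3, chr3:88372692-88372991, minus strand: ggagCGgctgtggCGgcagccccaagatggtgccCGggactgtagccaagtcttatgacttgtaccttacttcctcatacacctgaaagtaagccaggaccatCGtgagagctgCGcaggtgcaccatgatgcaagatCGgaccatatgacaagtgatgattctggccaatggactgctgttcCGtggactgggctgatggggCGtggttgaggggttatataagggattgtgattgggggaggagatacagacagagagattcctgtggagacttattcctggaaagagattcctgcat
Rhox5, chrX:37754358-37754657, plus strand: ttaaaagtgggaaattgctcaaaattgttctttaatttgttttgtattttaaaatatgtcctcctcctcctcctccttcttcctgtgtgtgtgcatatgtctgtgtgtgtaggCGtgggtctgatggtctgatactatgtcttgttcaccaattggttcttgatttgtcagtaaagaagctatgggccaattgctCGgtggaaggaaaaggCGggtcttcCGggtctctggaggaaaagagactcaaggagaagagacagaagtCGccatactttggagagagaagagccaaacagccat
Xlr, chrX:53797657-53797956, minus strand: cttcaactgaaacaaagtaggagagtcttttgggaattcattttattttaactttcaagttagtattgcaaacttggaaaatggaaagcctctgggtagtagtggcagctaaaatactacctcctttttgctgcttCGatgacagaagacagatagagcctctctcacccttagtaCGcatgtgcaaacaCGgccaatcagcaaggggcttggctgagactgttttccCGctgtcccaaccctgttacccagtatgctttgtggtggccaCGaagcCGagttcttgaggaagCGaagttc
Unc119b, chr5:115134926-115135225, minus strand: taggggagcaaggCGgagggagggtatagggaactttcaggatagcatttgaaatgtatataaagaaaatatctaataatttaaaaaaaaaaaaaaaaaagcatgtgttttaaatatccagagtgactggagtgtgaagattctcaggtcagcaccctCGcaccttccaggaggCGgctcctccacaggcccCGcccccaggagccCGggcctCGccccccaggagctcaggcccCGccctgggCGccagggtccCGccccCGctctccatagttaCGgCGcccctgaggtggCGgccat
Rhox5 held 5 CG, Xlr 7, Bglap3 8 and Unc119b 13. Bglap3 has 3 listed starts, of which the first is printed, and the windows of the others held 7 CG each. Which start these livers used was not tested. As many or more CG were found in 62.0% of all 32851 promoter windows for Rhox5, 52.1% for Xlr, 48.6% for Bglap3 and 37.9% for Unc119b. These are ordinary counts, and DNA methylation was not analysed here. The Rhox5 window belongs to a start upstream of the GENCODE gene model, which begins at position 37804842 on the X chromosome. Xist (15 CG in its window) matched the table too, and Pla2g16 had no entry under that symbol.

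Smg5 and Pmf1, the tested genes nearest to Bglap3 on either side (6.28 and 21.4 kb away), had log2 differences of 0.11 ± 0.11 and −0.03 ± 0.16. Acads and Mlec, which flank Unc119b at 3.2 and 8.01 kb, had 0.11 ± 0.11 and 0.09 ± 0.15. Jpx, a non-coding neighbour 10.3 kb from Xist, had −0.52 ± 0.35. Slc22a26, 192 kb from Pla2g16, had 0.75 ± 1.31. The nearest tested genes to Rhox5 lay 372 and 612 kb away and those to Xlr 107 and 2550 kb.

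Some of these counts are uncertain because near-identical copies can share reads. Bglap3 has copies of at least 95% identity over at least 50% of a transcript in Bglap and Bglap2, neither of which has a row in the count table used here. Xlr has such a copy in 3830403N18Rik. Xist overlaps an antisense transcript, and no source used here gives the strand setting of the counting. Rhox5, Unc119b and Pla2g16 had no such copy among GENCODE transcripts.

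Gstp2, a pi-class glutathione S-transferase, was next in order of p. In the count table it was at 1.65, 0.977 and 1.36 CPM in WT, against 6.31, 4.96 and 6.83 in KO, with no overlap (log2 2.17 ± 0.45, edgeR adjusted p = 0.067). Its near-identical relative Gstp1, which is abundant in male liver, went the other way: 523, 531 and 367 CPM in WT, against 277, 285 and 287 in KO (log2 −0.74 ± 0.25, edgeR adjusted p = 0.92). In the FPKM table, Gstp2 was listed at 240 ± 48.4 in WT and 165 ± 2.75 in KO, so that its difference there was reversed (log2 −0.52 on the log2(FPKM + 0.1) scale). The direction for Gstp2 depends on the table; the part of reads shared with Gstp1 was not tested. Gstp3, the third pi-class gene, stood at log2 −0.10 ± 0.24.

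Among non-overlapping genes whose average log2 CPM reached 1, the 10 with the smallest p on the higher side included Unc119b, Pla2g16 and Gstp2 and 7 others that edgeR did not call. DESeq2 called Ehbp1l1 and Serpinb1a among these, and limma on log2(FPKM + 0.1) called Serpinb1a. Ehbp1l1, an adaptor of vesicle transport, was at 7.16, 6.47 and 8.14 CPM in WT, against 14.9, 13.2 and 14.4 in KO (log2 0.96 ± 0.23, edgeR adjusted p = 0.18). Serpinb1a, an inhibitor of neutrophil proteases, had log2 2.15 ± 0.53, and Morc4, an X-linked chromatin ATPase, 1.04 ± 0.27. Asns, the asparagine synthetase induced by amino acid stress, was at 16.2 CPM in KO replicate 1 but at 5.21 and 7.28 in the other two, against 2.16 to 4.88 in WT. Bmi1, a Polycomb subunit, Akr1e1, an aldo-keto reductase, and Vopp1 had log2 differences of 0.45 ± 0.12, 0.48 ± 0.13 and 0.74 ± 0.20.

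On the lower side edgeR called no gene, and DESeq2 called Tmem19 and Pyroxd2. Tmem19, a membrane protein, came first, at 161, 180 and 170 CPM in WT, against 115, 121 and 91.8 in KO (log2 −0.64 ± 0.15, edgeR adjusted p = 0.14; DESeq2 called it, adjusted p = 0.03). Pyroxd2, a mitochondrial oxidoreductase that edgeR also called without KO replicate 2, stood at −0.62 ± 0.15, and the arachidonate P450 Cyp2j9 at −1.19 ± 0.32. The glucuronosyltransferases Ugt2a3 and Ugt2b1 stood at −0.47 ± 0.14 and −0.65 ± 0.21, and the urinary protein gene Mup10 at −0.77 ± 0.25. Setd7, a lysine methyltransferase, and Ttc21b, a ciliary transport protein, stood at −0.83 ± 0.25 and −0.80 ± 0.24. Mup10 shares near-identical sequence with 15 other genes, most of them Mup genes. Syt3, chosen after its values were seen, was low at 1.49, 1.95 and 0.922 CPM in WT, against 0.573, 0.368 and 0.341 in KO (log2 −1.74 ± 0.43, edgeR adjusted p = 0.2).

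X-linked genes made up 3 of the 6 called and 6 of the 31 genes higher at an unadjusted p under 0.001 (19.4%). At an unadjusted p under 0.05 they were 5.11% of the higher and 5.63% of the lower genes, beside 3.04% of all genes tested. A few low-level transcripts on several chromosomes, chosen after their values were seen, show the size of differences among genes that were not called. Magea3, a melanoma antigen gene of the X chromosome, held 2 counts over the WT group and 40 over KO (ratio 21.8, 95% interval 5.65 to 186). It has near-identical copies in 5 other Magea genes, Magea2 and Magea5 among them. Catsperd, a sperm calcium channel subunit, was at 0.206, 0 and 0.108 CPM in WT, against 1.09, 0.49 and 1.31 in KO (log2 3.05 ± 0.70). Cdh19, a cadherin of neural crest cells, held 0 counts in WT and 33 in KO, at least 12.0-fold higher against a floor of 3 counts over the WT group. Lncenc1, a non-coding RNA of embryonic stem cells, held 2 and 52 counts (ratio 28.3, 7.45 to 240). None of these 4 was called by edgeR (adjusted p = 0.14 to 0.29). Each was called in some alternative: Catsperd and Cdh19 by DESeq2, Cdh19 also with a replicate block over all libraries, Magea3 by limma on log2(FPKM + 0.1), and Lncenc1 by limma without the filter on low values.

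Of 54 germline and cancer-testis genes listed, 38 were in the count table, 6 of those had no count in any of the 6 libraries, and 16 were tested. Rhox5 and Xlr were called, and Magea2, Magea5 and Xlr4a were above 0 at an unadjusted p under 0.05. That made 5 members higher at this threshold (31.25%, beside 2.22% of all genes tested). Magea2 and Magea5 hold near-identical copies of Magea3 and can share its reads, so these Magea genes are not separate observations. In all, 14 members were counted above 0 and 2 below. Their median was 0.49 (0.43 with genes at 0 in a group set to their bound). Over all genes there were 6985 above and 7105 below, with a median of −0.00192. Tuba3a, counted among the 14, had no count in any of the 6 libraries (log2 5.1e-15), so it shows no difference. The filter on low counts was set by group over all 45 libraries, so a gene silent in WT could be tested through KO groups alone. How far the filter shaped these counts was not tested. The median rests on very low counts: leaving out 1 library moved it between 0.13 (without WT replicate 3) and 1.36 (without WT replicate 1). Imprinted genes, silenced on 1 parental copy by methylation, had 15 of 26 above 0 and a median of 0.02. Cdkn1c, a CDK inhibitor among them, was at 0.309, 0.366 and 0.434 CPM in WT, against 1.03, 1.04 and 0.683 in KO (log2 1.30 ± 0.40, edgeR adjusted p = 0.64), and Ndn lay on the other side (−1.07 ± 0.45).

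Outside the count table, the FPKM table held 1272 further entries that passed its filter (FPKM over 0.5 in at least 2 libraries). limma on log2(FPKM + 0.1) called 7 of them (0.55%), all higher in KO, beside 14 genes that are also in the count table. Of the 7, 6 are short transcripts that GENCODE leaves unclassified (biotype TEC), on chromosomes 3, 5 and 6; these are named after their values were seen. Gm42605 (chromosome 5, 96485766 to 96486150) was at 1.15, 1.26 and 1.23 FPKM in WT and 7.4, 6.34 and 9.48 in KO (log2 difference 2.56, limma adjusted p = 3.87e-05). Gm43108 (chromosome 3, 115913890 to 115914182) was at 0.559, 0.587 and 0.38 FPKM in WT and 3.52, 3.35 and 6.4 in KO (log2 difference 2.85, limma adjusted p = 5.67e-05). In all 6 entries the 3 KO libraries were above the 3 WT libraries.

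Those 6 are not independent. Their transcripts, of 293, 381 or 385 bases, are 100% identical over the whole length of the shorter one in 15 of 15 pairs, on either strand, so reads from one cannot be told from reads of another. A search of GENCODE transcripts found the same sequence, at 85% identity or more over at least 80% of its length, in 17 further genes, of which 14 passed the filter. Of these, 13 lay above 0 and 1 below, 11 were above 0 at an unadjusted p under 0.05, and 1 was called (Gm38226, at 2.43, 1.54 and 2.33 FPKM in WT and 9.97, 7.63 and 13 in KO). Among the 1272 entries outside the count table, 69 reached an unadjusted limma p under 0.05 in either direction. That is not a like background for the 11, since several of the 14, such as Gm38226 and Noct, are in the count table. The share over all entries on the higher side is not given here, so the 11 cannot be read as many or few. The 14 were picked for a sequence whose reads they can share with the 6 entries, so they are not separate observations. The sequence also sits inside transcripts of protein-coding genes. Noct, a circadian dinucleotide phosphatase that carries it at 100% identity, reached at most 42.1 CPM in WT livers and at least 54.3 in KO (log2 1.27 ± 0.41, edgeR adjusted p = 0.89). Slc38a6, an amino acid transporter with a 99.7% match, stood at 0.77 ± 0.24, and Rab3gap1 at 0.10 ± 0.12. How far reads of the repeat enter these 3 genes was not tested. The genotype difference was present before surgery too: over the 6 entries the baseline means were 0.613 to 1.53 FPKM in WT and 3.09 to 4.48 in KO. At 24 h they were 0.509 to 1.32 and 4.43 to 7.74.

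**Figure D2:**
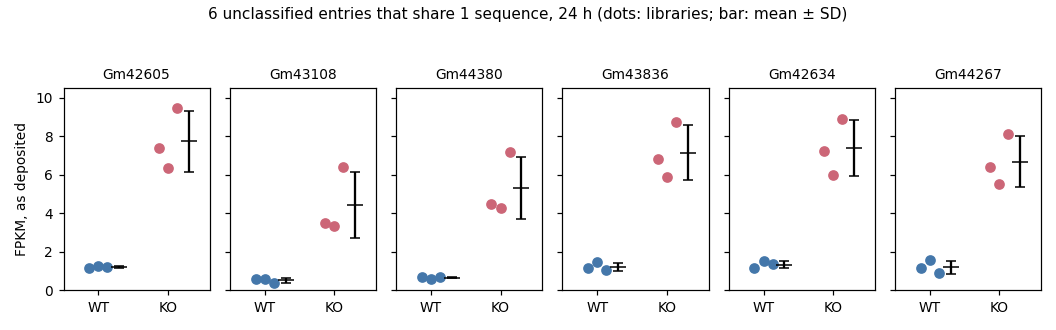
Deposited FPKM at 24 h of 6 unclassified entries that share 1 sequence (y axis, linear from 0, the same for all panels); dots are libraries and the bar is the mean ± SD. In each panel the KO libraries (3.35 to 9.48) lie above the WT libraries (0.38 to 1.56).

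Most of the called genes differed between genotypes at other times too. The genotype differences of Bglap3 (4.45 ± 0.52), Rhox5 (3.93 ± 0.75), Xist (5.02 ± 0.88) and Xlr (2.09 ± 0.43) were among the 12 genes called at baseline (0.0852% of those tested), and Unc119b stood at 0.53 ± 0.12 there. Pla2g16, at 0.59 ± 0.18 at baseline and 0.02 ± 0.21 at 30 h, was called at 24 h alone among the 8 conditions, but its difference at 24 h was not itself different from that at baseline (unadjusted p = 0.19). The libraries labelled 96 h were the exception: Bglap3 was at 17.2 ± 9.91 CPM in those labelled WT and 18.6 ± 10.3 in those labelled KO (SD, n = 3 each), a log2 difference of 0.12 ± 0.36.

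**Figure D3:**
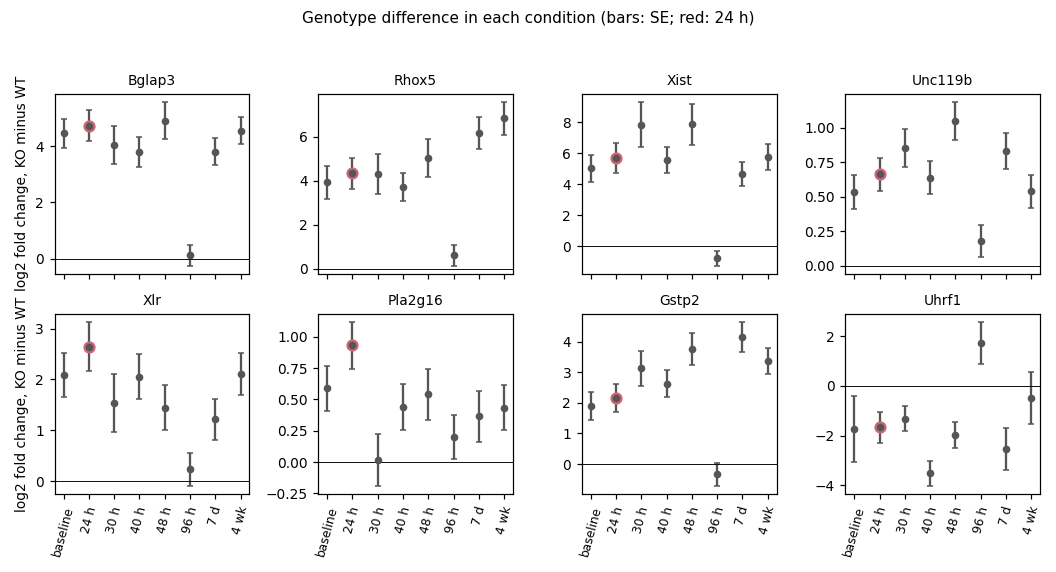
log2 fold change of KO minus WT (y axis, its own scale in each panel) for 8 genes in the 8 conditions of the series (x axis); bars are SEs and the red point is 24 h. Outside 96 h the differences of Bglap3 run from 3.79 to 4.91; at 96 h they are 0.12 for Bglap3, −0.78 for Xist and −0.33 for Gstp2.

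Over all 473 genes at an unadjusted p under 0.05 at 24 h, 71.0% had the same sign of difference at baseline, against 53.4% of all genes tested. The later times gave shares from 58.1% (7 days) to 73.2% (96 h), with 52.9 to 55.6% over all genes. Of the 122 genes at an unadjusted p under 0.01, 78.7% kept the sign at baseline. The baseline libraries entered the shared estimate of spread behind the 24 h p-values, though not the 24 h differences. The 96 h share rests on libraries labelled WT in which Bglap3 was as high as in those labelled KO (17.2 and 18.6 CPM). These shares are a description, since genes are not independent. Of the 473 genes, 96 were at an unadjusted p under 0.05 with the same sign at baseline too. The same count over all genes tested was not made, so the 96 cannot be read as many or few.

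The difference at 24 h was tested against that at baseline and at 30 h in the same edgeR fit. The 30 h side of the second test rests on 2 WT libraries and 3 KO libraries. No gene passed either test; 456 genes had an unadjusted p under 0.05 against baseline (3.24%), 240 of them with a higher difference at 24 h (1.7%). Against 30 h there were 776 (5.51%), 277 of them higher at 24 h (1.97%). DESeq2 called 1 gene against baseline, Akr1e1, whose genotype difference was 0.48 ± 0.13 at 24 h and −0.44 before surgery. Against 30 h it called 8, all with a lower difference at 24 h. These were Mgp, Mfap4, Myh11, Eri1 and Mthfd2, with Stmn1, a microtubule regulator, and Prc1 and Cenpw, which act in mitosis.

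Cell cycle genes were close to level between the genotypes at 24 h. Of 51 genes of DNA replication and nucleotide supply, none was called, 39 lay above 0, and the median was 0.11. The same genes had a median of 0.94 at 30 h, where the WT group held only 2 libraries. Of 47 mitosis genes none was called, and the median was 0.15 at 24 h and 1.51 at 30 h. Mcm2, a subunit of the replicative helicase, was at 15.7, 9.16 and 10.6 CPM in WT, against 21.2, 11.2 and 10.4 in KO. Pcna, the polymerase clamp, was at 26.9, 23.3 and 21.6 in WT and 25.2, 22 and 23.8 in KO, and the groups overlapped for both. Cyclin D1 (Ccnd1), which drives entry into G1, was at 110, 52.5 and 71.9 in WT and 105, 57.7 and 103 in KO. Mki67, a marker of cycling cells, was low at 0.759 to 1.85 and 0.552 to 2.05 CPM. Rrm2, which supplies deoxynucleotides, was at 2.77 to 3.66 CPM in WT and 4.17 to 5.57 in KO (log2 0.63 ± 0.33, not called). In the separate libraries of 30 h its difference was 2.45 ± 0.33. Without KO replicate 1 the medians turned to −0.06 for replication and −0.15 for mitosis; the mitosis median was also below 0 without WT replicate 2 (−0.02) or WT replicate 3 (−0.04).

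Of 18 genes of the methylation machinery tested, Uhrf1 included, none was called, 8 lay above 0 and 10 below, and the maintenance methyltransferase Dnmt1 was at 18.4, 11.4 and 14.8 CPM in WT, against 19.4, 13.4 and 15.6 in KO. Hells, a chromatin remodeller that helps DNMT1 reach DNA, stood at 0.79 ± 0.44. Of 21 immediate early genes, which respond within minutes to growth signals and stress, none was called; Fos stood at −1.81 ± 0.62 and Egr1 ranged from 71.8 to 282 CPM in WT livers and from 16.4 to 169 in KO, with the KO value of 169 in replicate 3.

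Interferon-stimulated genes lay mostly above 0, with no gene called. Of 51 tested, 46 lay above 0 and 5 below, and the median was 0.36. An unadjusted edgeR p under 0.05 was reached by 12, all above 0 (23.5%, beside 2.22% of all genes tested). Their summed level was 1279, 1382 and 1646 CPM in WT, against 1676, 1703 and 1670 in KO, so the groups were apart by a narrow margin. Oas2, which makes the activator of an antiviral RNase, was at 0.567, 0.733 and 1.14 CPM in WT, against 2.18, 0.98 and 3.47 in KO (log2 1.44 ± 0.42, edgeR adjusted p = 0.51). Ifit1, an RNA-binding antiviral protein, was at 6.65, 6.35 and 11.1 and at 12.7, 12.6 and 15 (0.74 ± 0.32). Isg15, a ubiquitin-like modifier, stood at 0.59 ± 0.28, and Ifi27 at 0.66 ± 0.22. Irf7, a transcription factor of the pathway, overlapped between groups. The median was 0.11 at baseline and −0.22 at 30 h, and it lay between 0.29 and 0.47 when each library was left out in turn. Without KO replicate 3, 6 members had an unadjusted p under 0.05.

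Antigen presentation genes followed, with 15 of 16 above 0 and a median of 0.21 (0.32 at baseline and −0.01 at 30 h). Tap1, the peptide transporter, was at 20.3, 15.8 and 20.8 CPM in WT, against 28, 29.2 and 23.5 in KO (0.50 ± 0.20), and the class II gene H2-Eb1 at 3.3, 3.54 and 3.25 and at 4.7, 4.6 and 8.08 (0.78 ± 0.30). Neither was called.

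Markers of immune cells moved with these lists in part. All 18 Kupffer cell markers tested lay above 0 (median 0.54), with summed levels of 322 to 451 CPM in WT, against 314 to 721 in KO. KO replicate 2 was just below the WT range and replicates 1 and 3 (597 and 721) above it; no marker was at 0 in all 6 libraries and none had an unadjusted p under 0.05. All 10 lymphocyte markers tested, of 19 listed, lay above 0 (median 0.92), with sums of 5.15 to 5.92 CPM in WT, against 9.92, 6.07 and 15.8 in KO. The B cell receptor subunit Cd79b was at 0.155, 0.366 and 0.108 CPM in WT, against 0.631, 0.858 and 1.88 in KO (log2 2.42 ± 0.52, edgeR adjusted p = 0.079; DESeq2 called it), and Cd79a reached 2.84 in KO replicate 3 alone. Of 12 monocyte and neutrophil markers 10 lay above 0 (median 0.46, or 0.10 without KO replicate 3). Without KO replicate 3 the Kupffer median was 0.21 and the lymphocyte median 0.63. Before surgery the medians were already 0.65 for Kupffer, 1.17 for lymphocyte and 0.93 for monocyte and neutrophil markers. At 30 h they were −0.42, 0.59 and −0.13. KO replicate 2 had the lowest Kupffer sum and the lowest monocyte and neutrophil sum (12.3 CPM) of the 6 libraries. Its interferon-stimulated sum was 1703 CPM, and its lymphocyte sum of 6.07 CPM was barely above the WT range. The part of these cells in the interferon and antigen presentation values was not tested.

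**Figure D4:**
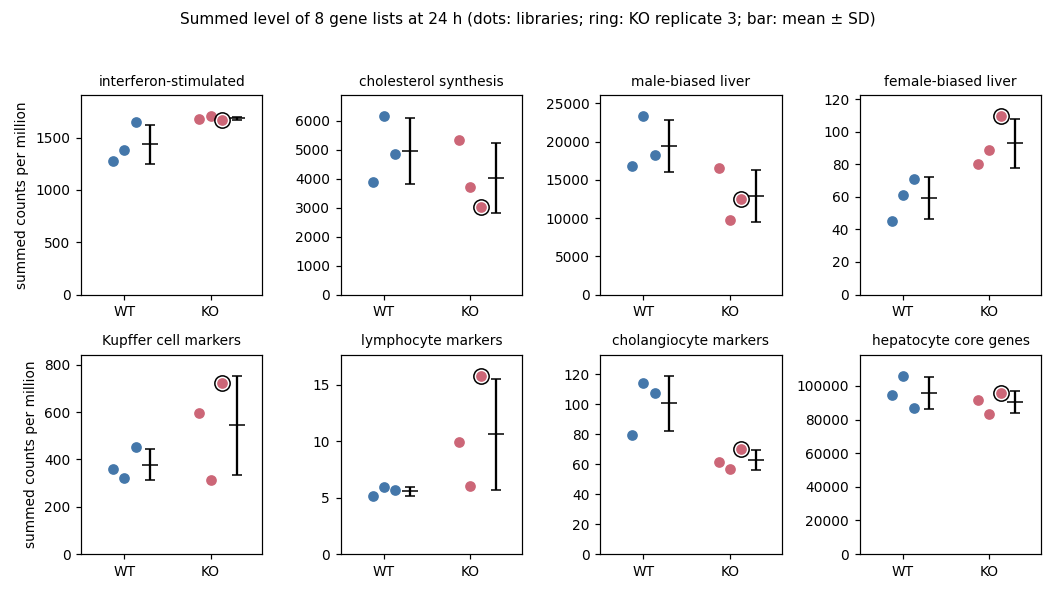
Summed CPM of 8 gene lists in each library at 24 h (y axis, linear from 0, its own scale in each panel); dots are libraries, the ring marks KO replicate 3, and the bar is the mean ± SD. WT and KO dots are apart for the interferon-stimulated, male-biased, female-biased, lymphocyte and cholangiocyte lists and overlap for the other 3.

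Markers of bile duct cells lay lower at 24 h. Their sum was 79.6, 114 and 108 CPM in WT, against 61.4, 56.6 and 70.1 in KO. Of 10 genes, 7 lay below 0 and 3 above, with a median of −0.48 and none called. The groups did not overlap for 1 member on the lower side, beside 4.29% of all genes tested. The list median was −0.04 at baseline and 0.38 at 30 h, where the WT group held only 2 libraries. Sox9, a transcription factor of ducts and progenitors, was at 11, 10.4 and 8.41 CPM in WT, against 5.16, 4.41 and 5.97 in KO (−0.94 ± 0.43), and Spp1, osteopontin, stood at −0.80 ± 0.35. Of 20 hepatocyte core genes 18 lay below 0, but the median was only −0.12, and Hnf4a, a master regulator of the hepatocyte, stood at −0.09 ± 0.16.

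Sex-biased liver genes lay on opposite sides of 0. Of 18 male-biased genes, which depend on the pulsed growth hormone of males, 17 lay below 0. An unadjusted edgeR p under 0.05 was reached by 9 on that side (50%, beside 1.14% of all genes tested). The groups did not overlap for 11, beside 605 genes (4.29%) with no overlap on that side in all. The median was −0.57 (−0.44 at baseline), and none was called in the edgeR fit of all libraries. With a replicate block in the fit of the 6 libraries at 24 h, Selenbp2 was called. Their sum was 16845, 23304 and 18266 CPM in WT, against 16520, 9750 and 12512 in KO. Selenbp2 was at 182, 125 and 80.4 CPM in WT, against 65.9, 39.7 and 33.8 in KO (−1.48 ± 0.57), and the urinary protein gene Mup3 stood at −0.51 ± 0.20, C6, a complement component, at −0.74 ± 0.30 and Slco1a1, an organic anion carrier, at −0.57 ± 0.23. Without KO replicate 3 the median was −0.59 with 2 members at an unadjusted p under 0.05. Of 11 female-biased genes 8 lay above 0 with a median of 0.66 (0.75 at baseline), which was 0.21 without KO replicate 3. That library held 33.4 CPM of Cyp2b9, a female-biased P450, against 6.08 and 7.6 in the other KO libraries and 0.542 to 3.54 in WT. Levels of the Y-linked genes overlapped between the groups (Kdm5d −0.02 ± 0.22).

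All 26 cholesterol synthesis genes tested lay below 0, with a median of −0.27, yet the libraries overlapped. Their sum was 3869, 6144 and 4857 CPM in WT, against 5340, 3714 and 3010 in KO, so that KO replicate 1 exceeded 2 of the WT libraries. Sqle, the squalene epoxidase, was at 120, 194 and 177 CPM in WT livers and 183, 117 and 92.4 in KO livers (−0.32 ± 0.27). None was called, and the median lay between −0.59 and −0.11 as each library was left out. It was 0.11 at baseline and −0.70 at 30 h.

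Other lipid genes lay slightly above 0. Of 28 genes of fatty acid oxidation and ketogenesis 27 were above 0, with a median of only 0.16 and no member at an unadjusted p under 0.05. Acadl, a long-chain acyl-CoA dehydrogenase, was at 292, 306 and 319 CPM in WT, against 337, 374 and 338 in KO (0.19 ± 0.11). Of 20 lipid droplet and fat uptake genes Pla2g16 was called and 16 were above 0, with a median of 0.28. Fabp4, a fatty acid chaperone, varied widely, at 46.5, 20.2 and 115 CPM in WT, against 105, 164 and 80.5 in KO, and Cd36, a fatty acid receptor, stood at 0.69 ± 0.41.

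Of 14 oncofetal genes, which fetal liver and liver tumours express, none was called. Igf2bp3, an RNA-binding protein, was at 0.103, 0.183 and 0.108 CPM in WT, against 0.917, 0.613 and 1.37 in KO (log2 2.83 ± 0.69, edgeR adjusted p = 0.19). Ly6d, a cell surface protein, stood at 1.16 ± 0.54. The list median of 0.29 (0.38 at baseline) was 0.0073 without KO replicate 3.

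**Figure D5:**
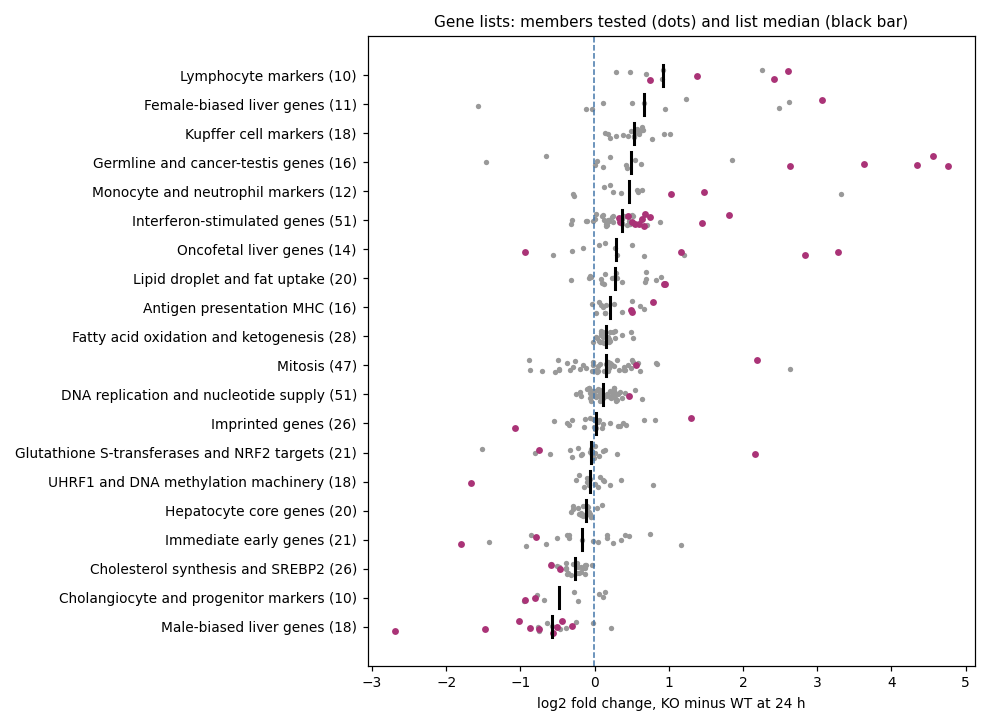
log2 fold change of KO minus WT at 24 h (x axis) for the tested members of 20 gene lists (y axis, number tested in brackets); grey dots are members, purple dots members at an unadjusted p under 0.05, black bars list medians, and the dashed line the median of all genes. Medians run from −0.57 for male-biased genes to 0.92 for lymphocyte markers, while cell cycle lists lie near 0.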

How the data were processed

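Mouse liver poly(A) RNA was sequenced in 45 libraries as 100-base paired reads, per the labels' protocols. The submitters' processing notes name FastQC 0.11.5, Trimmomatic, TopHat2 2.1.0, Cufflinks 2.2.1, HTSeq and DESeq2, and the build mm10. The deposited counts are whole, unnormalised reads per gene. The deposited FPKM values are normalised for transcript length and sequencing depth; which program made which table is not given in the sources used here. Gene positions are from GENCODE vM21 (GRCm38).

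Counts were fitted in R 4.3.3 with edgeR 4.0.16 (quasi-likelihood, robust, TMM factors, filterByExpr by group) over all 45 libraries as 16 groups, so every group shares the estimate of spread; p-values were adjusted by Benjamini and Hochberg over 14090 genes, and calls need an adjusted p under 0.05. Values printed per library are CPM with TMM factors. The FPKM table was tested with limma 3.58.1 on log2(FPKM + 0.1), so fold changes of low entries are understated; DESeq2 1.42.0 was an alternative. Gene lists are described by counts and medians, with no test of a list. Members, lists and named genes were chosen with earlier results of these data known. Named genes are Uhrf1, all called genes, the 10 smallest p in each direction among non-overlapping genes whose average log2 CPM reached 1 (predicted genes and pseudogenes left out), and each list's 4 smallest p with fixed defining genes; Gstp3, Ddx3y, Xlr4a, genes beside called genes, genes that share the repeated sequence and those marked in the text were chosen after their values were seen. The fit was tested on simulated data. Counting intervals are exact (95%), and they cover counting error only. Some genes that the naming rule picks are not reported here.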

Additional observations from a re-analysis of the deposited data

Results flagged for a closer look

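Entries listed in the FPKM table and not in the count table gave 7 calls at 24 h (limma on log2(FPKM + 0.1)), each above the level in the WT libraries. The log2 differences of KO minus WT were 2.56 for Gm42605, 2.85 for Gm43108, 2.82 for Gm44380, 2.44 for Gm43836, 2.39 for Gm42634 and 2.40 for Gm44267. These 6 share 1 sequence, so they count as 1 signal. The seventh, the small nuclear RNA entry Gm25556 (chromosome 11, 106186444 to 106186587), had a log2 difference of 4.08 (limma adjusted p = 0.00776). It was listed at 0 in the 3 WT libraries and in KO replicate 3, and at 6.72 and 7.03 FPKM in KO replicates 1 and 2, so its value rests on 2 libraries. The class of the repeated sequence was not looked up here.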

How the results depend on the processing

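The 6 calls at 24 h became 2 in the fit of the 6 libraries alone, 18 with DESeq2, 21 with limma on log2(FPKM + 0.1), 14 on log2(FPKM + 1) and 36 without a filter on low FPKM. Leaving out each library in turn gave 1 to 5 calls. DESeq2 called 1 gene against baseline and 8 against 30 h where edgeR called 0; leaving out each library left both at 0. RLE factors gave the same 6 genes. Without the 96 h libraries 6 were called, 5 of them shared, with Gstp2 in place of Pla2g16. Of 400 alternative values for 25 named genes, 397 kept their sign; Gstp2 reversed in the FPKM fits (log2 −0.52 at a pseudocount of 0.1, with and without the filter, and −0.52 at 1). Xist was called in 9 of 16 alternatives, Rhox5 in 12, Unc119b in 9 and Xlr in 10. Of 320 alternative list medians, 307 kept their sign.

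Replicate numbers were shared between genotypes. Same-numbered libraries deviated together weakly (correlations 0.0656, 0.117 and 0.119), yet more than differently numbered ones (−0.132 to 0.0191). What the shared numbers stand for was not tested. A replicate block in the fit of all libraries called 6 genes, 3 of them shared with the 6. In the fit of the 6 libraries it called 5 genes, 1 of them shared: Bglap3, Mup16, Selenbp2, Sult1e1 and Gstp2.

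The shares of genes with the same sign moved with the threshold at every time but 96 h. At an unadjusted p under 0.01 the share was 78.7% for baseline, 81.1% for 30 h, 83.6% for 40 h, 85.2% for 48 h, 73.8% for 96 h, 73.8% for 7 days and 76.2% for 4 weeks. Genes lower at 24 h shared the sign in 65.0% of cases for baseline, 63.8% for 30 h, 67.5% for 40 h, 69.4% for 48 h, 64.4% for 96 h, 57.5% for 7 days and 63.1% for 4 weeks; over all genes below 0 at 24 h it was 49.8 to 59.5%. Genes higher at 24 h shared it in 58.5% (7 days) to 77.6% (96 h) of cases. Over all genes above 0 at 24 h it was 47.8 to 57.3%, and 55.1% for 96 h. Genes under 1 CPM rest on few counts, and depth limits them most.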
